A study of Mus musculus with 8 samples.

Results

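Osmoregulation and aquaporin genes were followed in notochord-derived cells (NDCs), the cells of the embryonic notochord that give rise to the nucleus pulposus (NP) of the intervertebral disc. The 10 genes were chosen by name among the 43346 gene identifiers counted, with earlier results of these data known. They were 5 genes of the organic osmolyte system (Nfat5, Slc6a6, Slc5a3, Slc6a12 and Akr1b3) and 5 aquaporins (Aqp1, Aqp3, Aqp4, Aqp5 and Aqp11). RNA was sequenced from primary NDCs of Shh-cre;ROSA:YFP mice, with 4 litters at E12.5 (NDP10.2, NPD3, NPD4 and NPD9.2) and 4 at P0 (NPD26, NPD27, NPD28 and NPD30), the animals of a litter being pooled. All samples carried the Shh-cre driver and the YFP reporter, which marks any cell that has expressed Shh and its progeny, and none had a further allele or treatment. E12.5 notochords were dissected whole and frozen without sorting, whereas P0 NP cells were shaken out of opened thoracic and lumbar discs and sorted for YFP, so that stage and isolation method cannot be told apart. In such bulk samples fewer cells of a type and less RNA per cell cannot be told apart either.

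Cells placed in a salty surrounding lose water and recover their volume by taking up or making small organic osmolytes. NFAT5, also called TonEBP, is the transcription factor that answers hypertonic stress, and it switches on carriers for taurine (Slc6a6), myo-inositol (Slc5a3) and betaine (Slc6a12) as well as aldose reductase (Akr1b3), which makes sorbitol. Aquaporins are membrane pores for water, some of which also pass glycerol. NP tissue is rich in proteoglycan, whose fixed charge holds cations and water, so that NP cells live in a hypertonic matrix, and NFAT5 has long been studied there.

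Reads counted on genes ranged from 4442775 to 7180221 per E12.5 litter and from 6371842 to 8904050 per P0 litter. Levels are in CPM, counts scaled to a common library size, with library sizes normalized by edgeR's TMM method, on which 3 counts, taken as the smallest readable signal, correspond to 0.353 to 0.738 CPM. Ambiguous reads made up 16.3% and 17.5% of the reads of NDP10.2 and NPD9.2, and 7.07% to 11.6% in the other litters. The notochord gene T was present in all litters (242 to 942 CPM at E12.5 and 574 to 2323 CPM at P0), whereas Noto, another notochord gene, stayed between 0 and 0.433 CPM in all 8. Markers of other cells differed between litters. The 10 leukocyte markers summed to 61.1 to 119 CPM at E12.5, to between 3005 and 3847 CPM in NPD26, NPD27 and NPD28, and to 320 CPM in NPD30, although the P0 cells had been sorted for YFP.

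Tonicity-responsive genes carry an enhancer element, TonE, which NFAT5 binds. Promoter windows of 300 bases, from 250 before to 50 after an annotated start site, were taken from RefSeq on GRCm38.p6, and 7 of the 10 members had at least 1 window, with 11 windows in all. Slc6a6, Akr1b3 and Aqp4 had none. The windows of Slc6a12 and Aqp1 are printed because these members had the largest stage differences. In the Slc6a12 window, on the plus strand at chr6:121342324-121342623 and the most upstream of its 5, capitals mark the match to TonE. In the Aqp1 window, on the plus strand at chr6:55336049-55336348, capitals mark its matches to the shorter letters GGAAA on either strand, which lie within TonE.
Slc6a12: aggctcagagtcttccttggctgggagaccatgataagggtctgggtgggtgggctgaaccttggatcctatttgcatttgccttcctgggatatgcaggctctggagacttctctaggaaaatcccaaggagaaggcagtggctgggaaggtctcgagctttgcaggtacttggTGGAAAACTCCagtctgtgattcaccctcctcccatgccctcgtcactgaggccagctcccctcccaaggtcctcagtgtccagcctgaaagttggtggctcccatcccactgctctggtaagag
Aqp1: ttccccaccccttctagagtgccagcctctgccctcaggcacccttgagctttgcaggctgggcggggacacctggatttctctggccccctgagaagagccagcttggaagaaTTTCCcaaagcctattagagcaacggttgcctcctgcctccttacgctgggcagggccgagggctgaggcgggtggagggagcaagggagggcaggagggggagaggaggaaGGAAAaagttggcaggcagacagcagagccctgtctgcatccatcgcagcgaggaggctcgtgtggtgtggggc
The TonE match in Slc6a12 began 75 bases upstream of this window's own start site, chr6:121342574. That site lies upstream of the gene start in the Gencode annotation, chr6:121343076, whose own window held no match. The match was the only one to TonE, or to its first letters TGGAAA, on either strand of the 11 windows. Of all 32851 RefSeq windows of this length, 4.96% held TonE, 21.4% held TGGAAA and 61.3% held GGAAA. A match is a description of the letters, and their absence from the other windows says nothing about sites elsewhere.

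Of the 10 members, 8 passed the filter on low counts and were tested, and Aqp3 and Aqp5 did not pass it. At an adjusted p under 0.05 in edgeR's quasi-likelihood test with Benjamini-Hochberg adjustment over 15467 genes, mRNA abundance was higher at P0 compared to E12.5 for 3 members (Slc6a12, Aqp1 and Slc6a6) and lower for 1 (Nfat5), while 4 did not pass (Slc5a3, Akr1b3, Aqp4 and Aqp11). Over all genes tested, 27.9% were called, 16.0% as higher and 12.0% as lower at P0. Every P0 litter lay above every E12.5 litter for 3 tested members and below for 1, against 15.5% and 14.4% of all genes tested. The median log2 fold change of the 8 was 1.34, against 0.04 over all genes tested. Slc6a12 passed the filter through its P0 litters alone, so these counts and this median describe the members that passed and not all 10.

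**Figure D1:**
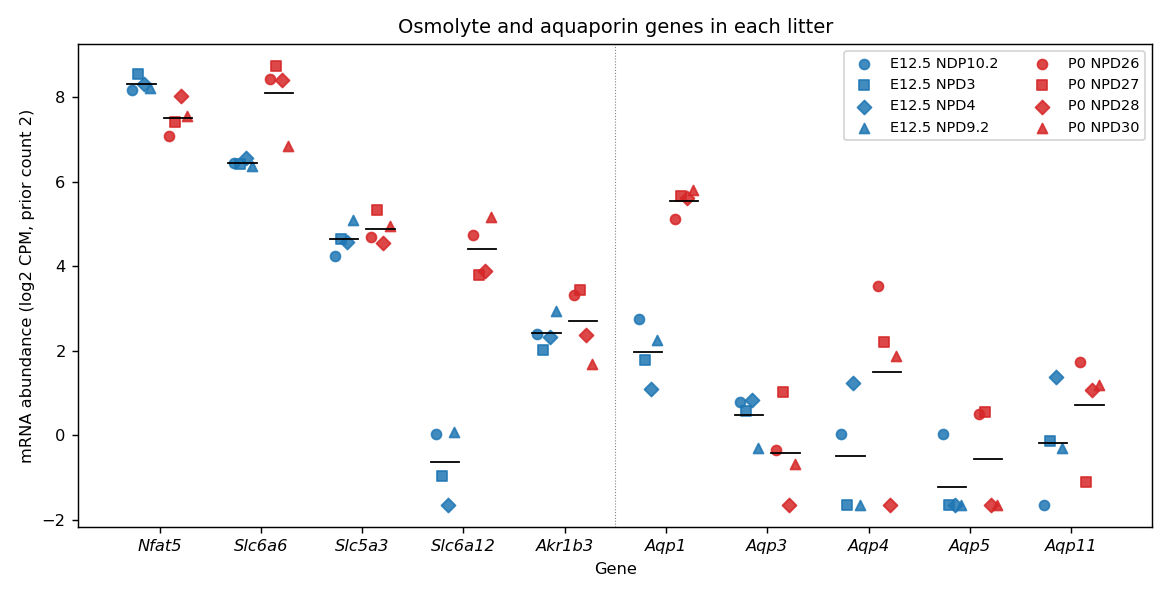
mRNA abundance of the 10 members in each litter, in log2 CPM with a prior count of 2, for E12.5 (blue) and P0 (red), with a black line at the mean of each stage. The stages separate for Nfat5, Slc6a6, Slc6a12 and Aqp1 and overlap for the other 6, and NPD30 lies below the other P0 litters for Slc6a6.

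Nfat5, the regulator of the system, had the highest level of the members at E12.5 and decreased. The gene lies on chromosome 8 (chr8:107293470-107379517 on GRCm38, plus strand). Its level was 286, 374, 319 and 300 CPM at E12.5 (in the order NDP10.2, NPD3, NPD4 and NPD9.2), and 135, 170, 262 and 187 CPM at P0 (in the order NPD26, NPD27, NPD28 and NPD30). All P0 litters lay below all E12.5 litters, NPD28 being nearest to them. The mean went from 320 ± 38.8 to 188 ± 53.6 CPM (SD, n = 4 litters), and the log2 fold change was -0.77 (SE 0.25, adjusted p = 0.0438, edgeR). This call was close to the threshold. It was lost in 7 of the 8 fits that left out a litter in turn, with adjusted p-values in edgeR of 0.0505 without NDP10.2, 0.0929 without NPD3, 0.0706 without NPD4, 0.0643 without NPD9.2, 0.109 without NPD26, 0.114 without NPD27 and 0.0539 without NPD30, and it remained only without NPD28, at 0.0168. The log2 fold change stayed between -0.96 and -0.62 in these fits. Markers of several other cell types fell beside it, and those of others rose. The 7 sclerotome markers summed to between 135 and 205 CPM in the E12.5 litters and to between 8.01 and 23.2 CPM in the P0 litters (7 called as lower), the 8 muscle markers to 189 to 993 and 23.1 to 121 CPM (4 of 6 tested), the 8 epithelium markers to 58.0 to 158 and 5.89 to 19.3 CPM (5 of 5 tested), and the 3 primitive erythroid markers to 8120 to 32810 and 2.12 to 7.07 CPM (all 3). The 9 definitive erythroid markers fell in sum as well (2079 to 17150 and 502 to 1404 CPM). Other lists rose, the leukocyte markers from 61.1 to 119 CPM to 320 to 3847 CPM. Neutrophil markers went from 4.01 to 15.8 CPM to 764 to 6678 CPM. Osteoblast markers went from 239 to 1274 CPM to 3146 to 12110 CPM, most of it Col1a1. Neural, endothelium and chondrocyte sums overlapped between stages. The part of any of these cells in the level of Nfat5 was not tested. The genes whose pattern over the 8 litters was most like that of Nfat5, by the root mean square difference of centred log2 CPM, were Phf21a (0.10) and Tnrc6a (0.12).

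Among the osmolyte carriers, Slc6a12, which brings betaine and GABA into the cell with sodium, went from the detection limit to a clear signal. It lies at chr6:121343076-121365775 on the plus strand. At E12.5 the litters NDP10.2, NPD3, NPD4 and NPD9.2 held 3, 1, 0 and 3 reads, or 0.708, 0.195, 0 and 0.738 CPM. At P0 NPD26, NPD27, NPD28 and NPD30 held 169, 94, 123 and 234 reads, or 26.6, 13.6, 14.5 and 35.5 CPM. The stages did not overlap, all E12.5 litters were at or under 3 reads, and the highest P0 litter was NPD30. In all, 620 reads at P0 stood against 7 at E12.5, a ratio of 67.7 per library size with an exact 95% interval of 32.7 to 169 that covers counting error only. The edgeR log2 fold change, which depends on the prior count for so few reads, was 5.93 (SE 0.71, adjusted p = 0.000363), and the difference was called in all 16 alternatives in which the gene was tested. The genes most like Slc6a12 in pattern were Plb1, which encodes a phospholipase (root mean square difference 0.52), and Ndufa4l2, a hypoxia-responsive mitochondrial gene (0.53).

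Slc6a6, the taurine carrier (chr6:91684053-91759066, plus strand), increased as well, but not to the same extent in every litter. The E12.5 litters NDP10.2, NPD3, NPD4 and NPD9.2 held 86.8, 85.5, 93.7 and 83.1 CPM. At P0 NPD26, NPD27, NPD28 and NPD30 held 344, 428, 341 and 115 CPM. The E12.5 litters were close together, and the P0 litters lay above them, with NPD30 just above and the other 3 far above. The mean rose from 87.3 ± 4.54 to 307 ± 134 CPM (SD, n = 4), a fold of 3.52 and a log2 fold change of 1.81 (SE 0.35, adjusted p = 0.0037, edgeR), and the call was kept whichever single litter was left out. With NPD30 as the only P0 litter the log2 fold change was 0.43, and without the E12.5 litters NDP10.2 and NPD9.2 it was 1.73 (adjusted p = 0.0598, edgeR).

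The P0 litters with high Slc6a6 were those with high leukocyte markers. All 10 genes of that list were called as higher at P0, none was at 0 in a P0 litter, and the pan-leukocyte gene Ptprc stood at 175, 250, 568 and 50.5 CPM in NPD26, NPD27, NPD28 and NPD30, against 3.12 to 5.16 CPM at E12.5. The part of these cells in the level of Slc6a6 was not tested. The genes most like Slc6a6 in pattern were Ifngr2, a subunit of the interferon gamma receptor (root mean square difference 0.21), and Ap1b1, an adaptor subunit of vesicle coats (0.22). For Slc6a12 and Aqp1, in contrast, NPD30 was the highest P0 litter. With NPD30 as the only P0 litter, a fit chosen after seeing the data, the log2 fold changes of these 2 were 6.61 and 3.90. A single litter gives no spread at P0.

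**Figure D2:**
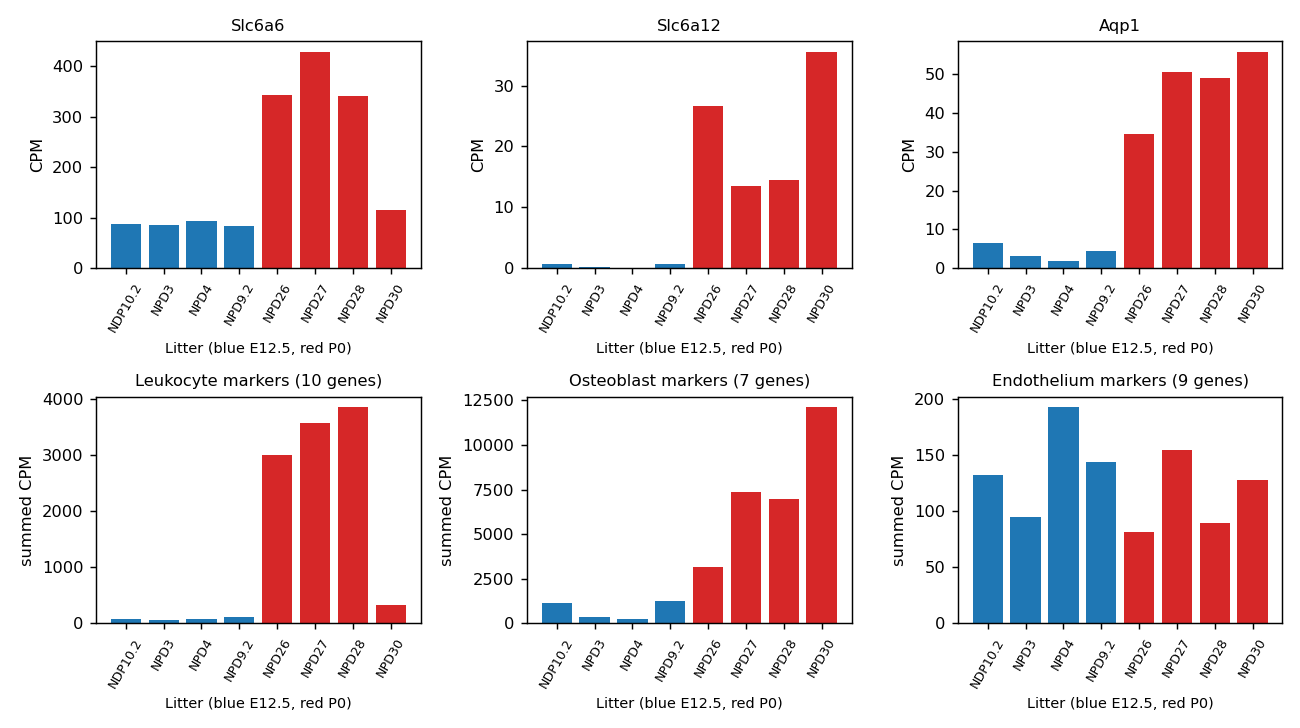
Bars give the level in each of the 8 litters (blue E12.5, red P0) of Slc6a6, Slc6a12 and Aqp1 in CPM and, below, the summed CPM of leukocyte, osteoblast and endothelium markers. Slc6a6 and the leukocyte markers are both low in NPD30 among the P0 litters. Aqp1, Slc6a12 and the osteoblast sum, most of it Col1a1, are highest in NPD30, and the endothelium markers overlap between stages.

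The remaining osmolyte genes showed no difference that passed the test. Slc5a3, the sodium-coupled myo-inositol carrier (chr16:92058322-92087473, plus strand), stood at 18.6, 24.8, 23.5 and 33.7 CPM at E12.5 and at 25.6, 39.7, 23.2 and 30.8 CPM at P0, in the same order of litters. The ranges overlapped, and the log2 fold change was 0.25 (SE 0.27, adjusted p = 0.535, edgeR). It shares 159 exon bases, 1.5% of its own, with Mrps6 on the same strand. Akr1b3, aldose reductase (chr6:34302434-34317478, minus strand), stood at 4.95, 3.71, 4.72 and 7.38 CPM at E12.5 and at 9.75, 10.5, 4.83 and 2.88 CPM at P0. Its P0 litters lay on both sides of the E12.5 litters, with a log2 fold change of 0.43 (SE 0.48, adjusted p = 0.541, edgeR) that turned to -0.79 with NPD30 as the only P0 litter. The count of Akr1b3 is uncertain, since 4 other annotated genes carry stretches of 948 to 1352 bases that match it at 99.1% to 99.7% identity, and reads that align to several places were not counted. The nearest of them, Gm38056, held 33 to 155 reads at E12.5 and 42 to 197 at P0, more than Akr1b3 itself in 6 of 8 litters.

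Aqp1, the widely used water channel of red cells, capillaries and kidney tubules (chr6:55336432-55348555, plus strand), rose strongly. Its level was 6.37, 3.12, 1.81 and 4.43 CPM in NDP10.2, NPD3, NPD4 and NPD9.2, and 34.4, 50.5, 49.0 and 55.6 CPM in NPD26, NPD27, NPD28 and NPD30. The stages did not overlap, and each P0 litter exceeded the highest E12.5 litter. The mean rose from 3.93 ± 1.94 to 47.4 ± 9.09 CPM (SD, n = 4), a fold of 12.3 and a log2 fold change of 3.62 (SE 0.38, adjusted p = 0.000184, edgeR), which was called under all 17 alternatives and stayed between 3.35 and 3.91 with any single litter left out.

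Red cells and endothelium, in which Aqp1 is known, were read by their markers. The 9 definitive erythroid markers summed to between 2079 and 17150 CPM in the E12.5 litters and to between 502 and 1404 CPM in the P0 litters, with 1 called as higher (Klf1, log2 fold change 1.43) and 3 as lower. The 9 endothelium markers summed to 94.8 to 192 CPM and to 81.8 to 154 CPM, with 1 called as higher (Flt1, 1.85) and 2 as lower. Osteoblast markers rose, from 239 to 1274 CPM at E12.5 to 3146 to 12110 CPM at P0 for the 7 genes summed. Most of this sum was Col1a1 (235 to 1272 and 2845 to 11490 CPM), whose protein the paper also saw in the NP at P0. All 5 genes that were tested were called, Bglap and Bglap2 having too few reads. Within P0 the sum was lowest in NPD26 and highest in NPD30, as was the level of Aqp1. Ibsp and Sp7 had their lowest and highest P0 levels in the same litters. Alpl and Dmp1 were lowest in NPD26 too, but highest in NPD28 and NPD27. The 9 notochord and NP markers summed to 3339, 1969, 3796 and 6935 CPM in NPD26, NPD27, NPD28 and NPD30, against 1687 to 4007 CPM at E12.5. This sum joins genes that moved in opposite directions. Of the 8 tested, 2 were called as higher (Krt19, log2 fold change 1.74, and Cd24a, 1.33). Another 2 were called as lower (Shh, -7.14, and Foxa1, -2.23). Shh fell from 420 to 1348 CPM at E12.5 to 0.157 to 11.8 CPM at P0. The 8 chondrocyte markers summed to 2408, 1897, 6708 and 8571 CPM in these P0 litters. Both sums were lowest in NPD27 and highest in NPD30, as was the level of Slc6a12. The part of any of these cells in the levels of Aqp1 and Slc6a12 was not tested. The genes most like Aqp1 in pattern were Ifi27, an interferon-induced gene (root mean square difference 0.23), and Col10a1, the collagen of hypertrophic chondrocytes (0.35). Col10a1 is itself among the 8 chondrocyte markers, of which 7 were tested. Of these, 3 were called as higher (Col10a1 at 3.20, Matn3 at 2.64 and Acan at 1.99) and 1 as lower (Col9a1 at -2.94). The sum of the 8 overlapped between stages (2347 to 8669 and 1897 to 8571 CPM).

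The other 4 aquaporins among the members held few reads at E12.5, with at most 19 in a litter. Aqp4, the water channel of astrocytes, stood at 0.708, 0, 2.06 and 0 CPM at E12.5 and at 11.2, 4.33, 0 and 3.34 CPM at P0, in the same order of litters. The stages overlapped because NPD28 held no read, and the log2 fold change of 2.56 had an SE of 1.29 (adjusted p = 0.17, edgeR). The highest litter at each stage, NPD4 and NPD26, was also the highest at that stage for the summed neural markers (1340 and 360 CPM, the lowest litters being at 170 and 155 CPM), and NPD28 was the lowest P0 litter for both. Their part in Aqp4 was not tested.

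Aqp11, an aquaporin of intracellular membranes, held 0, 0.585, 2.30 and 0.492 CPM at E12.5 and 2.99, 0.144, 1.77 and 1.97 CPM at P0, with overlapping ranges and a log2 fold change of 0.87 (SE 0.95, adjusted p = 0.537, edgeR). Aqp3, a channel for water and glycerol, held 6, 6, 12 and 2 reads at E12.5 and 3, 12, 0 and 2 reads at P0. Aqp5, the water channel of gland and lung epithelia, held 3, 0, 0 and 0 reads at E12.5 and 7, 8, 0 and 0 reads at P0. In the fit without a filter on low counts, in which 15.2% of 32299 genes were called, neither Aqp3 (log2 fold change -0.89, adjusted p = 0.587, edgeR) nor Aqp5 (1.63, adjusted p = 0.482) passed. Differences between the stages in these 2 genes were not detectable at this depth.

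**Figure D3:**
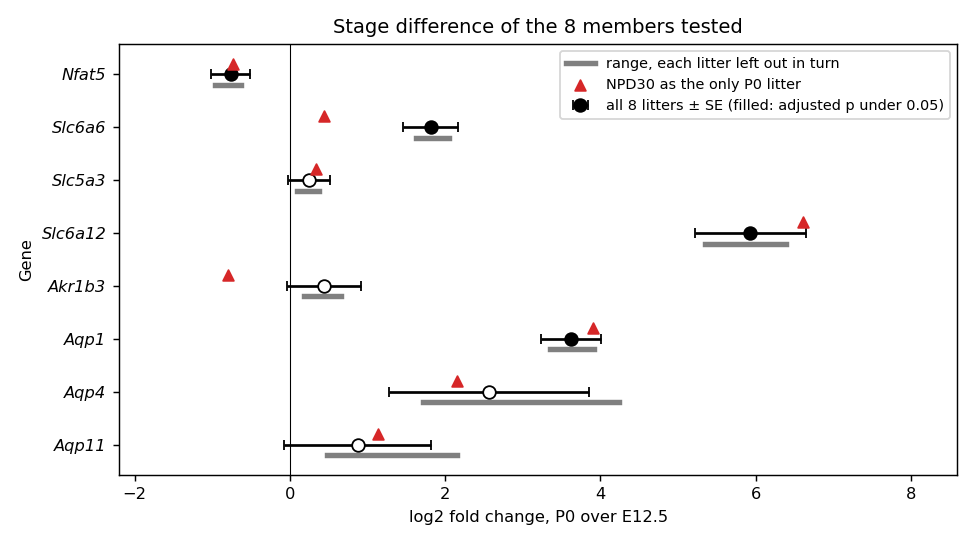
Log2 fold change (P0 over E12.5) of the 8 members tested, as circles with bars of 1 SE (filled where the adjusted p is under 0.05). Grey bars span the values with each litter left out in turn, and triangles give the value with NPD30 as the only P0 litter, which moves Slc6a6 to 0.43 and Akr1b3 to -0.79.

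Levels were compared between members as RPKM, the CPM of a gene divided by the kilobases of its merged exons. At E12.5 the order by mean level was Nfat5 (17.4), Slc6a6 (10.3), Slc5a3 (2.30), Aqp1 (1.50), then Aqp3 and Akr1b3 (both 0.619), and Slc6a12 (0.134), Aqp4 (0.111), Aqp11 (0.0896) and Aqp5 (0.0681). Nfat5 (15.6 to 20.4) and Slc6a6 (9.83 to 11.1) did not overlap with each other or with Slc5a3 (1.71 to 3.09), nor Akr1b3 (0.442 to 0.880) with Slc6a12 (0 to 0.242), whereas the other neighbours overlapped.

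At P0 the order was Slc6a6 (36.3), Aqp1 (18.0), Nfat5 (10.23), Slc6a12 (7.38), Slc5a3 (2.73), Akr1b3 (0.834), Aqp4 (0.755), Aqp3 (0.343), Aqp5 (0.217) and Aqp11 (0.182). Slc6a12 (4.44 to 11.6) did not overlap with Slc5a3 (2.13 to 3.63), nor Slc5a3 with Akr1b3 (0.344 to 1.26), and the other neighbours overlapped. Slc6a12 thus moved from the 7th to the 4th place and Aqp1 from the 4th to the 2nd, while Nfat5 moved from the 1st to the 3rd. With the length of the longest transcript in place of merged exons the order at P0 was the same, and at E12.5 Akr1b3 (1.03) stood above Aqp3 (0.642) and Aqp11 (0.146) above Aqp4 (0.137). The P0 level of Akr1b3 became 1.39.

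Genes that act around the members were read from 5 lists, chosen with earlier results of these data known. Of 11 further genes of the response to tonicity, 9 were tested, 4 were called as higher at P0 and none as lower (16.0% and 12.0% over all genes tested), and their median log2 fold change was 0.15, against 0.04 over all genes tested. S100a4, a calcium-binding protein that is also abundant in leukocytes and fibroblasts, rose from 0 to 1.23 CPM to 2.27 to 13.7 CPM (log2 fold change 3.78, SE 0.86, adjusted p = 0.00755, edgeR), and its P0 level was lowest in NPD30. Like Slc6a12 it passed the filter through its P0 litters alone. Hspa1b, an inducible Hsp70 chaperone, rose from 0.725 to 4.92 CPM to 2.67 to 34.6 CPM with overlapping ranges (3.15, SE 0.82, adjusted p = 0.0163, edgeR). Its call was lost without NPD3 (2.91, adjusted p = 0.0556, edgeR). Hspa1a, of the same list and named after its values were seen, fell under the filter. It was higher at P0 in the fit without a filter (3.09, adjusted p = 0.000329, edgeR), in which Hspa1b had an adjusted p of 0.0434. Near-identical copies were searched for the members only, so reads shared with other genes were not examined for these 2. Without NPD9.2 the log2 fold changes were 4.49 for S100a4 and 3.85 for Hspa1b. Sgk1, a kinase induced by changes in cell volume, rose from 33.7 to 135 CPM to 215 to 430 CPM (1.90, SE 0.48, adjusted p = 0.0144, edgeR). Hspa4l, the Hsp110 chaperone known as osmotic stress protein 94, was the remaining call (1.48, adjusted p = 0.00816, edgeR). Slc38a2, the amino acid carrier SNAT2, stood at 197 to 283 CPM at E12.5 and at 119 to 249 CPM at P0 and was not called (-0.48, adjusted p = 0.232, edgeR). Without NDP10.2 and NPD9.2 the number called on this list was 2.

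Of 13 genes that make, break down or carry osmolytes, 11 were tested, 3 were called as higher and none as lower, a share near the 27.9% called over all genes tested, with a median log2 fold change of 0.38. Cdo1, the cysteine dioxygenase that opens the way from cysteine to taurine, rose from 13.2 to 21.9 CPM to 83.1 to 267 CPM and was highest in NPD30 (3.12, SE 0.40, adjusted p = 0.00049, edgeR). Csad, the next enzyme on that way, stood at 18.3 to 39.3 CPM and 17.7 to 20.8 CPM and was not called (-0.68, adjusted p = 0.0904, edgeR). Sord, which turns sorbitol into fructose, rose from 8.20 to 18.4 CPM to 16.4 to 70.6 CPM (1.75, SE 0.47, adjusted p = 0.0192, edgeR), with NPD30 within the E12.5 range and the call lost without NPD3 (adjusted p = 0.0614) or NPD26 (0.0539). Slc36a1, a proton-coupled amino acid carrier, rose from 14.2 to 19.7 CPM to 39.0 to 71.7 CPM (1.70, SE 0.25, adjusted p = 0.000976, edgeR). Isyna1, which makes the precursor of myo-inositol, was not called (-0.37, adjusted p = 0.48, edgeR). Slc6a20a, a proline and betaine carrier named after its values were seen, fell under the filter with 0 to 0.39 CPM at E12.5 and 23.8, 9.95, 1.53 and 9.85 CPM at P0, and was higher at P0 in the fit without a filter (adjusted p = 4.25e-09, edgeR).

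The list of 20 cell volume regulators had 19 tested genes, of which 6 were called as higher and 2 as lower (16.0% and 12.0% over all genes tested), with a median log2 fold change of 0.36. Slc12a2, the sodium-potassium-chloride cotransporter NKCC1 that loads shrunken cells with salt, rose from 66.2 to 87.6 CPM to 458, 313, 833 and 1601 CPM in NPD26, NPD27, NPD28 and NPD30 (3.41, SE 0.49, adjusted p = 0.0008, edgeR), and the log2 fold change was 2.79 without NPD30. Stk39, the kinase SPAK that activates it, rose from 41.6 to 55.7 CPM to 92.7 to 332 CPM (1.94, SE 0.35, adjusted p = 0.00267, edgeR). Wnk1, the kinase upstream of SPAK, rose too (1.82, adjusted p = 0.011, edgeR), and all 3 had their highest level in NPD30. Wnk3 and Wnk4, of the same kinase family, fell (-1.77 and -1.13, adjusted p = 0.00433 and 0.02, edgeR), the call of Wnk4 being lost without NDP10.2 (adjusted p = 0.052), NPD26 (0.0573) or NPD27 (0.0586).

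Atp1b1 and Atp1b3, beta subunits of the sodium pump that keeps the sodium gradient used by the osmolyte carriers, rose. Atp1b1 went from 5.66 to 17.9 CPM to 54.8 to 98.5 CPM (3.07, SE 0.40, adjusted p = 0.000494, edgeR), and Atp1b3 was called as well (1.74, adjusted p = 0.000505, edgeR). The channel subunits Lrrc8a, Lrrc8b, Lrrc8c and Lrrc8d, through which swollen cells release chloride and osmolytes, were not called, with log2 fold changes between -0.40 and 0.36. With NPD30 as the only P0 litter the log2 fold changes were 3.07 for Atp1b1 and 1.56 for Atp1b3. Wnk1, Wnk3, Wnk4, Atp1b3 and Hspa4l, and the uncalled Slc38a2, Csad, Isyna1 and Lrrc8 genes, were named after their values were seen, as were Nfatc1 and Nfatc3.

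**Figure D4:**
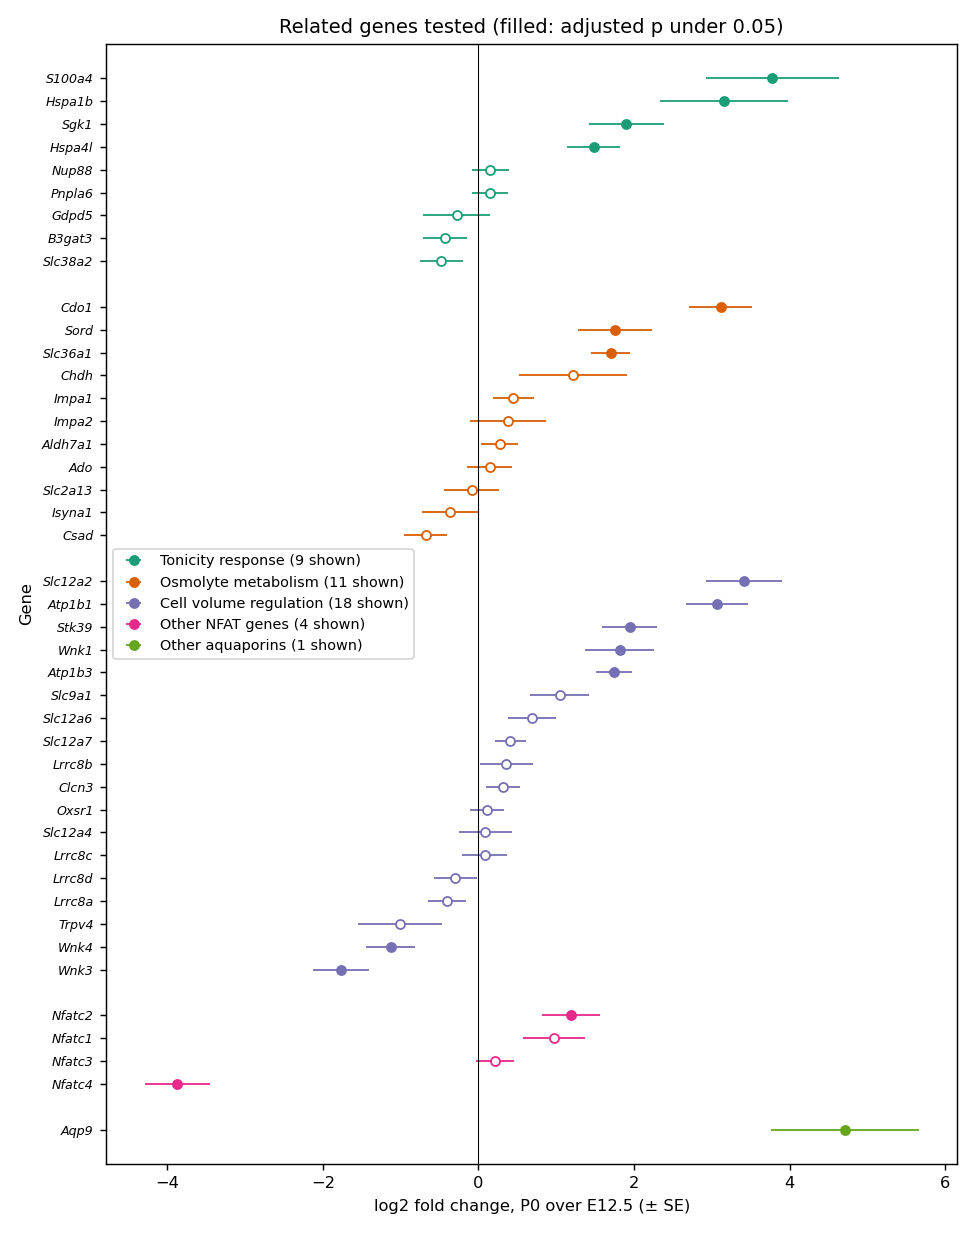
Log2 fold change (P0 over E12.5) with bars of 1 SE for the tested genes of the 5 related lists except 1 volume regulator, filled where the adjusted p is under 0.05. Of the tonicity, osmolyte and volume lists 4, 3 and 8 genes passed (the gene not drawn included), and Wnk3, Wnk4 and Nfatc4 were the ones that fell.

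Of the 4 other NFAT genes, which unlike Nfat5 answer calcium through calcineurin, Nfatc4 fell from 38.8 to 99.6 CPM to 2.31 to 7.39 CPM (-3.87, SE 0.42, adjusted p = 0.000199, edgeR). Sclerotome, muscle, epithelium and primitive erythroid markers fell beside it, and leukocyte, neutrophil and osteoblast markers rose. The part of such cells in Nfatc4 was not tested. Nfatc2 rose (1.19, SE 0.37, adjusted p = 0.0327, edgeR), and its call was lost without NPD3 (adjusted p = 0.0819), NPD4 (0.0667), NPD9.2 (0.0934), NPD27 (0.0955) or NPD28 (0.059). Nfatc1 and Nfatc3 were not called. Of the 7 aquaporin genes that are not members only Aqp9, a channel for water and glycerol that neutrophils carry, passed the filter. It stood at 0 to 0.585 CPM at E12.5 and at 2.99, 3.32, 17.2 and 3.94 CPM in NPD26, NPD27, NPD28 and NPD30 (4.71, SE 0.95, adjusted p = 0.00433, edgeR), having passed the filter through its P0 litters alone, and the log2 fold change was 3.69 without NPD28 and 5.49 without NPD3. The 8 neutrophil markers summed to 6678 CPM in NPD28, to 764 to 973 CPM in the other P0 litters and to 4.01 to 15.8 CPM at E12.5. Among the P0 litters Elane (1.3 CPM) and Mpo (22.8 CPM) were lowest in NPD28, where the others of this list were highest. The part of neutrophils in Aqp9 was not tested. Aqp7, named after its values were seen, fell under the filter, with 0 to 0.39 CPM at E12.5 and 0.629 to 7.64 CPM at P0, and was higher at P0 in the fit without a filter (log2 fold change 4.96, adjusted p = 0.000258, edgeR).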

How the data were processed

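Sequencing reads were aligned by the authors with STAR 2.4.0j to GRCm38.p3 and counted with htseq-count on Gencode M4 genes, and the deposited values are raw counts per gene and sample, without normalization. The strand setting of the counting is not given in the sources used here, so reads of overlapping antisense genes could not be separated. Library sizes are sums over genes only, which took 22.6% to 34.8% of the reads tallied. Stages were taken from the age given per the labels. Gencode M21 annotation of GRCm38 gave positions and exon lengths.

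Counts were normalized by TMM and tested in R 4.3.3 with edgeR 4.0.16 (filterByExpr with a minimum count of 10 and a minimum total of 15, robust quasi-likelihood F-test, P0 over E12.5, all 8 samples), with Benjamini-Hochberg adjustment over 15467 genes and calls at an adjusted p under 0.05. Log2 CPM uses a prior count of 2. The test was tried on simulated data with known changes in fewer genes than were called here, and no result rests on that trial. Each litter was sequenced as 1 sample, so p-values measure the spread between litters. Genes near-identical to a member were searched among Gencode transcripts at 95% identity over at least 100 bases. Alternatives were DESeq2 1.42.0, limma-voom 3.58.1, other normalizations and filters, and each litter left out. The exclusion of NDP10.2 and NPD9.2, and of NPD26, NPD27 and NPD28, was chosen after seeing the data.

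The members and gene lists were chosen with earlier results of these data known. Named were all members, the 3 called genes with the largest change of each related list, and for each called member the 2 tested genes nearest in pattern. Other genes of the lists were named after their values were seen. Of the volume regulators, 1 gene is counted with its list but not reported here.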

Additional observations from a re-analysis of the deposited data

Results flagged for a closer look

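Each member was examined in each stage for a litter that stood apart from the other 3 by Dixon's ratio of gap to range in log2 CPM, at its 95% critical value. Of the 20 groups, 1 was flagged, and chance flags about 1 in 20. Aqp5 in the E12.5 litter NDP10.2 had a ratio of 1.0, because that litter held 3 reads and the other 3 held none. NPD30, low for Slc6a6 among the P0 litters, had a ratio of 0.8285, just under the critical value.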

How the results depend on the processing

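Slc6a12 and Aqp1 were called as higher at P0 under every alternative in which they were tested (16 and 17), and Slc5a3, Aqp4 and Aqp11 under none. With no filter the adjusted p-values of Slc6a12 and Aqp1 were far lower than in the main fit (1.38e-14 and 3.8e-16, edgeR). Adjusted p-values from the fit with no filter are therefore not comparable with those of the main fit. Nfat5 was called under 7 of 17. Its log2 fold change was -0.75 with no filter (adjusted p = 0.0639, edgeR), -0.92 without NDP10.2 and NPD9.2, -0.74 with NPD30 as the only P0 litter, and between -0.96 and -0.62 with a litter left out in turn, and DESeq2 kept the call (adjusted p = 0.00999). Slc6a6 was called under 15 of 17 and lost its call without NDP10.2 and NPD9.2 (1.73) and with NPD30 alone (0.43), where Akr1b3 turned to -0.79. A lone P0 litter was assumed to vary like the E12.5 litters, so that fit measured no spread between P0 litters. Without NDP10.2 and NPD9.2 the calls were 2 members, 2581 genes, 1 other NFAT gene, 0 other aquaporins (Aqp9 at an adjusted p of 0.0601, edgeR) and 2 tonicity genes. With NPD30 alone they were 2 members, 1054 genes, 1 other NFAT gene, 0 other aquaporins (Aqp9 at 0.18) and 5 volume regulators. With 1 litter left out the calls ranged from 3 to 4 for members, 3612 to 4529 for genes, 1 to 3 for other NFAT genes, 1 to 2 for other aquaporins and 2 to 5 for osmolyte genes. Of the 4321 calls 57.1% were higher at P0, and 47.5% with upper quartile normalization, which moved the median log2 fold change of all genes from 0.04 to -0.11 and turned no member. Lengths of the longest transcript moved the RPKM of Akr1b3 from 0.619 to 1.03 at E12.5 and from 0.834 to 1.39 at P0. Fewer samples entered these exclusions, and for the other changes the cause was not tested. No paired analysis was possible because no litter number occurs at both stages. Depth limits Aqp3, Aqp4, Aqp5, Aqp11 and the E12.5 level of Slc6a12, each with litters at or under 3 reads.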
